A study of Mus musculus with 4 samples.

Results

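The genes described are 53 components of the machinery that drives cells through the division cycle, out of 39179 genes counted in each embryo. They were listed by name, with earlier results of these data known, and were sorted by the step they serve: 15 act in G1 and at entry into S phase, 17 in DNA replication, and 21 in G2 and mitosis. All 53 were found among the counted genes and all passed the filter on low counts. RNA was sequenced from 4 individual mouse chimeras staged at E7.75, late in gastrulation, with a high contribution of injected embryonic stem cells (ESCs) that carry an inducible FLAG-tagged form of LHX1, a homeodomain protein of the LIM class. The form was FLAG-Lhx1 in 2 of the chimeras and FLAG-Lhx1-mt in the other 2, and the protocol gives the mt form a deletion sign without naming the altered stretch. The foster mothers of all 4 drank 2 mg/mL doxycycline with 5% sucrose for 24 hours, so neither group is an uninduced control. Host cells from 8-cell embryos of an ARC x RLZRFP cross remain in every chimera, and neither the share of ESC descendants per embryo nor the number of ESC clones is given. Embryos were collected at E8.5 but had lagged by about a day. Total counts ran from 21267116 to 30434442 per embryo. Log-scale levels of all tested genes correlated at 0.982 and 0.978 between replicates and at 0.965 to 0.97 between groups. The Lhx1 gene was at 129 and 114 CPM against 126 and 98.5 CPM (log2 fold 0.11, edgeR adjusted p = 0.733). Counts per gene cannot part reads of the endogenous gene from any reads of the induced form. Levels are in CPM (counts per 1000000, scaled by TMM), and a pair of values gives replicate 1, then replicate 2, with FLAG-Lhx1 before FLAG-Lhx1-mt.

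In the division cycle, D-type cyclins with CDK4 or CDK6, and then E-type cyclins with CDK2, phosphorylate the retinoblastoma protein family and free E2F transcription factors, which switch on genes of DNA replication. The MCM helicase is loaded on origins with the help of ORC, CDC6 and CDT1, and geminin blocks a further round of loading. Cyclin B with CDK1 then drives mitosis, the spindle checkpoint holds chromosomes until they are attached, and CDC20 activates the ubiquitin ligase that ends mitosis. Epiblast cells of the gastrulating mouse embryo are known to divide very fast, with short gap phases.

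The control regions of these genes carry short motifs that E2F factors and the mitotic gene complexes are known to bind. Promoter windows of 300 bases (250 before and 50 after an annotated start, RefSeq, GRCm38.p6) were at hand for 42 of the 53 genes, in 46 windows, and were searched on both strands. The E2F motif was searched as TTTGGCGC, TTTCCCGC, TTTGCCGC or TTTCGCGC, the CHR motif of mitotic genes as TTTGAA or TTCGAA, and the NF-Y site as CCAAT, and none of these motifs contains another. An E2F motif lay in 8 of 14 S-phase genes (57.1%), 5 of 11 G1 genes (45.5%) and 1 of 17 mitotic genes (5.88%), against 2.61% of all 27025 genes with a window. A CHR motif lay in 13 of 17 mitotic genes (76.5%), 2 of 14 S-phase genes and 2 of 11 G1 genes, against 21.7% of all genes. CCAAT was found in 88.2% of the mitotic, 78.6% of the S-phase and 54.5% of the G1 genes, against 41.1% of all genes. The member windows were richer in G and C (mean 61.1%) than all windows (53.6%), and these shares are descriptions with no test.

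**Figure D1:**
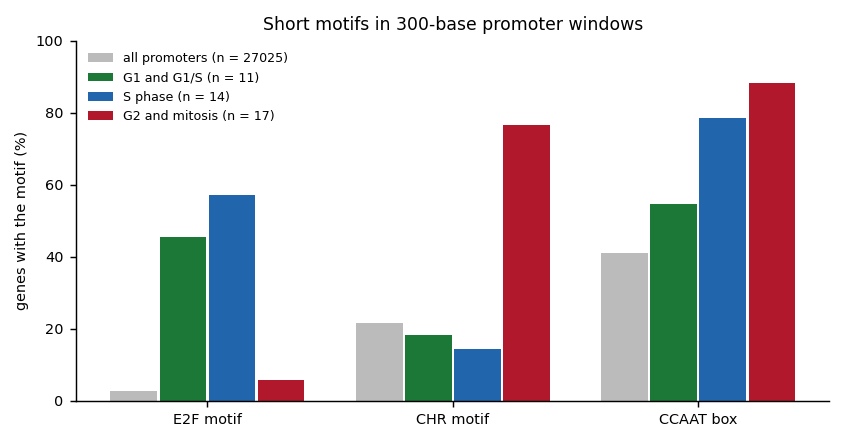
Share of genes (vertical axis, percent) with an E2F motif, a CHR motif or a CCAAT box in their 300-base promoter windows, for all genes and for the 3 classes of cell cycle genes; n is the number of genes with a window. E2F motifs are most frequent in the S-phase class (57.1%) and CHR motifs in the mitotic class (76.5%).

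Windows are printed for the 3 genes whose level differed between the groups, Cdk2, Ccne1 and Bub1, and for 2 that carry the typical motifs of their class without a called difference, Cdc6 of S phase and Cdc20 of mitosis. Each is given 5′ to 3′ on its gene's strand, and capitals mark every E2F, CHR and CCAAT match. They lie at chr10:128705002-128705301 (- strand), chr7:38107441-38107740 (- strand), chr2:127831810-127832109 (- strand), chr11:98907901-98908200 (+ strand) and chr4:118437294-118437593 (- strand) of GRCm38.p6. The windows of Cdk2 and Cdc6 each hold 1 E2F match, and that of Cdk2 also holds 1 CCAAT match. Those of Bub1 and Cdc20 each hold 1 CHR and 2 CCAAT matches, and that of Ccne1 holds none of these motifs.
Cdk2: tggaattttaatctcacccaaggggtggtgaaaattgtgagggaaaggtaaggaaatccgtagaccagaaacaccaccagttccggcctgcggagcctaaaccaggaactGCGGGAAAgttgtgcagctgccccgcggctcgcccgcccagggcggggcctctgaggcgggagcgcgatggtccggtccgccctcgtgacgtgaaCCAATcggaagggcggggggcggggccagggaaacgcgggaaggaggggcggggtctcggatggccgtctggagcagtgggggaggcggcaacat
Ccne1: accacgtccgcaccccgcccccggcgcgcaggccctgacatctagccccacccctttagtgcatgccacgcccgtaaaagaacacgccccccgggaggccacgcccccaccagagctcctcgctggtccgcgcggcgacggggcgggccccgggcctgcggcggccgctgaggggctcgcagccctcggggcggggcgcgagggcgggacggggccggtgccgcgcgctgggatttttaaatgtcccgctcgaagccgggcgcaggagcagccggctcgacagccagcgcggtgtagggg
Bub1: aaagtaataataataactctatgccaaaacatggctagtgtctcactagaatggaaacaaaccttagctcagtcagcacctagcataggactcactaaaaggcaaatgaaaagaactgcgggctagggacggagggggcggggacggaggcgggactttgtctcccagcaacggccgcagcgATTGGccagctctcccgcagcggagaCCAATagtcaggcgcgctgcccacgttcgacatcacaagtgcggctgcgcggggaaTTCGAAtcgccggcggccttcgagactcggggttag
Cdc6: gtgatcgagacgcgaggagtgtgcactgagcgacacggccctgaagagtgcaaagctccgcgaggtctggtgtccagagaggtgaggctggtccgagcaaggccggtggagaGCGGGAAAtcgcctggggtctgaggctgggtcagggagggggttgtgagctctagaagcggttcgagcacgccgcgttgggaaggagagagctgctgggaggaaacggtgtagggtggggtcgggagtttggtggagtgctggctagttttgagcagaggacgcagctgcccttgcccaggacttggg
Cdc20: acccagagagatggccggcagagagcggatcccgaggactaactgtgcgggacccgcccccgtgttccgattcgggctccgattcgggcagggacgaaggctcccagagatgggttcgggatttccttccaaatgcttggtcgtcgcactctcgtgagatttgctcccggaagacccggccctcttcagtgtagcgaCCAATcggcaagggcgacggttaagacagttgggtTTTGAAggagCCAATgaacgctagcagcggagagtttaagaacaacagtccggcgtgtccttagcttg

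Most of the machinery differed little between the 2 groups. edgeR's quasi-likelihood test with Benjamini-Hochberg adjustment over all 15822 tested genes called 3 of the 53 (5.66%), against 6.17% of all tested genes. Bub1 was higher in FLAG-Lhx1 (1 of 53; 2.62% of all genes were called higher), and Cdk2 and Ccne1 were lower (2 of 53; 3.55% of all genes were called lower). The median log2 fold, FLAG-Lhx1 minus FLAG-Lhx1-mt, was 0.01 over the 53 genes and 0.01 over all tested genes, and 51 of the 53 differed by less than 1.5-fold, as did 74.0% of all tested genes. Of the 10654 tested genes at or above the level of the lowest of the 53 (2.48 CPM), 84.1% differed by less than 1.5-fold and 8.16% were called. The 95% interval of the fold lay within a 2-fold change either way for 47 of the 53, and 45 of the 50 uncalled genes were among them. The cell cycle genes had a median level of 122 CPM and all tested genes 8.28 CPM, so their folds were estimated more tightly, with a median SE of 0.15 against 0.27 on the log2 scale. The 10654 genes had a median level of 21.9 CPM and a median SE of 0.20, so they do not match the 53 in level either. The 2 groups did not overlap for 32 of the 53 genes (60.4%), against 52.2% of all tested genes.

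Together the 53 genes took 9793 and 9630 CPM in FLAG-Lhx1 against 10039 and 9415 CPM in FLAG-Lhx1-mt. This is 0.942% to 1.00% of the TMM-scaled library size of each embryo, which differs from its total counts. On this TMM scale the FLAG-Lhx1 embryos lie between the FLAG-Lhx1-mt embryos. By class, the G1 genes summed to 1099 and 1121 CPM in FLAG-Lhx1 and to 1393 and 1231 CPM in FLAG-Lhx1-mt, lower in both FLAG-Lhx1 embryos. Cdk4 was the most abundant of these genes and weighs most in that sum. The S-phase genes summed to 4169.9 and 4125 CPM against 3872 and 3904 CPM, higher in both FLAG-Lhx1 embryos on the TMM scale. That order depends on the scaling, whose factor was 0.926 for FLAG-Lhx1 replicate 2 and 1.01 to 1.04 for the other embryos. Without it, the S-phase sum of FLAG-Lhx1 replicate 2 does not lie above those of the FLAG-Lhx1-mt embryos. The mitotic genes summed to 4524 and 4384 CPM against 4774 and 4280.2 CPM, with overlap. RNA was taken from whole embryos, so fewer dividing cells and less RNA per cell cannot be told apart.

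**Figure D2:**
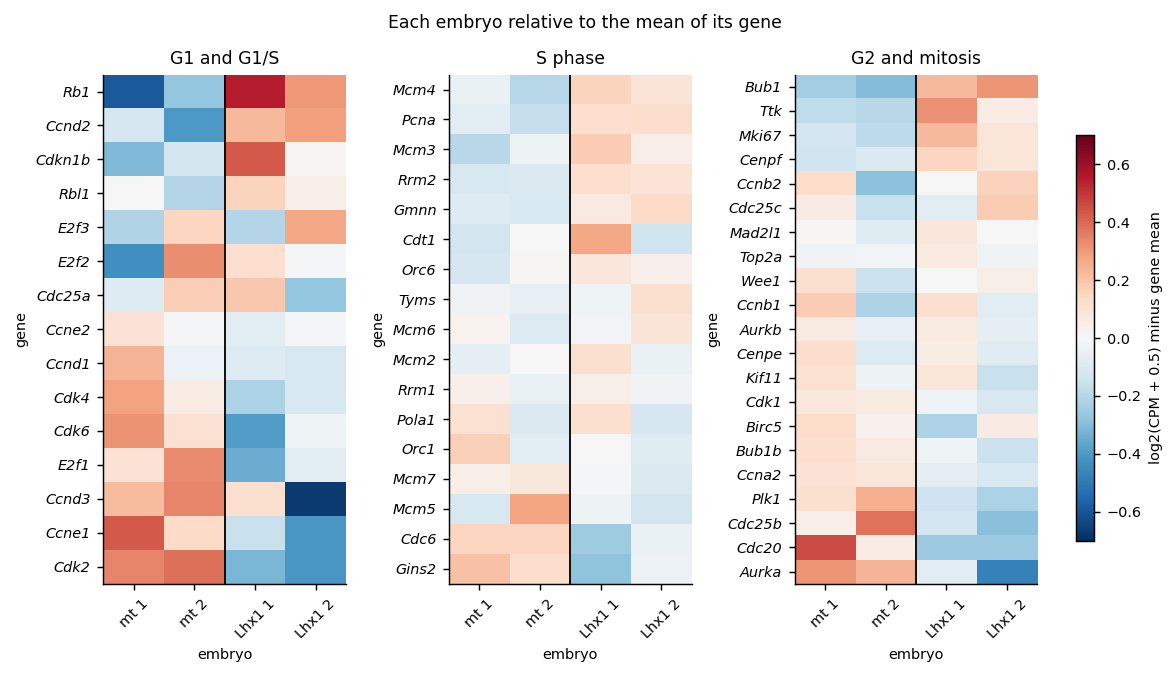
Level of each of the 53 genes (rows, by class and ordered by log2 fold) in each embryo (columns; the line parts FLAG-Lhx1-mt from FLAG-Lhx1), as log2(CPM + 0.5) minus the mean of the gene over the 4 embryos. The S-phase genes stay close to their means, while Cdk2 and Ccne1, the 2 called G1 genes, differ by group; Rb1 and Ccnd2 stand apart by group in the plot but were not called.

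The G1 class held both of the genes called lower. Cdk2, the kinase partner of the E-type cyclins (ENSMUSG00000025358), was at 39.3 and 36.9 CPM in FLAG-Lhx1 against 62.4 and 64.5 CPM in FLAG-Lhx1-mt. The groups are well apart, and each is tight. The means (± SD, n = 2 each) of 38.1 ± 1.71 and 63.4 ± 1.47 CPM differed by -0.74 on the log2 scale (SE 0.15, edgeR adjusted p = 0.0109), or 0.601-fold with a 95% interval of 0.48 to 0.752. The call held in every alternative fit except the one without FLAG-Lhx1 replicate 2 (log2 fold -0.68, adjusted p = 0.0994).

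Ccne1 encodes cyclin E1, which binds CDK2 (ENSMUSG00000002068). It was at 125 and 105 CPM in FLAG-Lhx1 and at 187 and 153 CPM in FLAG-Lhx1-mt. Both FLAG-Lhx1 embryos lie below both others, with a wider spread than for Cdk2. The log2 fold was -0.57 ± 0.16 (SE, n = 2 each, edgeR adjusted p = 0.0419), or 0.675-fold (0.537 to 0.848). The call was lost without FLAG-Lhx1-mt replicate 1 (-0.42) or FLAG-Lhx1 replicate 2 (-0.43), and also under upper-quartile scaling (-0.51) and offsets for length and GC content (-0.47). Ccne2, for cyclin E2, had a log2 fold of -0.09 (adjusted p = 0.759), and Ccne1 made up 63.6% and 58.4% of the E-type cyclin level per kilobase in FLAG-Lhx1 against 69.8% and 67.1% in FLAG-Lhx1-mt.

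The D-type cyclins, which link growth signals to the cycle, were led by Ccnd2. It was at 128 and 134 CPM in FLAG-Lhx1 and at 101 and 83.0 CPM in FLAG-Lhx1-mt, above in both FLAG-Lhx1 embryos. Its log2 fold of 0.51 ± 0.15 just missed the threshold (SE, n = 2 each, edgeR adjusted p = 0.0539; 1.14 to 1.78-fold). It was called by DESeq2 and limma-voom, with the replicate block (adjusted p = 0.0412), under upper-quartile scaling and without FLAG-Lhx1-mt replicate 1 (0.65). Its log2 fold was 0.29 (adjusted p = 0.279) with offsets for length and GC content and 0.36 (adjusted p = 0.212) without FLAG-Lhx1-mt replicate 2. Ccnd1 was at 16.0 and 15.7 CPM in FLAG-Lhx1 and at 20.2 and 16.6 CPM in FLAG-Lhx1-mt (log2 fold -0.21, adjusted p = 0.608). An exon of a gene on the other strand covers 23.4% of its exon bases, so its value is uncertain. Ccnd3 was at 12.8 and 7.22 CPM in FLAG-Lhx1 and at 13.9 and 15.1 CPM in FLAG-Lhx1-mt (log2 fold -0.53, adjusted p = 0.264), with FLAG-Lhx1 replicate 2 lowest. The log2 fold of Ccnd3 was -0.17 without that embryo and -1.03 without FLAG-Lhx1 replicate 1. Per kilobase of exon, Ccnd2 made up 73.8% and 77.4% of the level of the 3 D-type cyclins in FLAG-Lhx1, and 64.7% and 62.8% in FLAG-Lhx1-mt. This share is higher in both FLAG-Lhx1 embryos, and with 2 embryos per group an exact permutation test of 1 value cannot give a p below 0.333.

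Among the kinases that D-type cyclins activate, Cdk4 had the highest level per kilobase of the G1 class (197 CPM per kilobase). It was at 544 and 589 CPM in FLAG-Lhx1 and at 773 and 658 CPM in FLAG-Lhx1-mt, lower in both FLAG-Lhx1 embryos but not called (log2 fold -0.34, SE 0.15, edgeR adjusted p = 0.207; 0.635 to 0.987-fold). Cdk6 made up 0.63% to 0.751% of the joint level of Cdk4 and Cdk6 per kilobase in the 4 embryos, and its log2 fold was -0.43 (adjusted p = 0.241). Tspan31, on the opposite strand, overlaps 19.7% of the Cdk4 exons, so the level of Cdk4 is uncertain, and its log2 fold was -0.22 without FLAG-Lhx1-mt replicate 1. Without Cdk4, the G1 genes summed to 554 and 532 CPM in FLAG-Lhx1 against 620.2 and 573 CPM in FLAG-Lhx1-mt, still lower in both FLAG-Lhx1 embryos. These sums still hold Ccne1, called lower (125 and 105 CPM against 187 and 153 CPM). They also hold Ccnd2, higher in both FLAG-Lhx1 embryos (128 and 134 CPM against 101 and 83.0 CPM). A few abundant genes weigh most in them, so they do not describe the class as a whole.

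None of the G1 brakes among the 53 genes was called. Rb1, the retinoblastoma gene, was at 9.69 and 8.09 CPM in FLAG-Lhx1 and at 4.12 and 5.27 CPM in FLAG-Lhx1-mt. It had the largest log2 fold of the 53 (0.92 ± 0.27, SE, n = 2 each), a wide interval of 1.26 to 2.83-fold and an edgeR adjusted p of 0.0602. Lpar6 and Rcbtb2, on the opposite strand, overlap 14.9% of its exons. DESeq2 called it. With offsets for length and GC content its log2 fold was 0.70 (edgeR adjusted p = 0.16). With 1 embryo left out, the log2 fold of Rb1 ran from 0.75 to 1.10. Its relative Rbl1, which encodes p107, had a log2 fold of 0.21 (adjusted p = 0.578). Cdkn1b, for the CDK inhibitor p27, was at 10.8 and 7.94 CPM in FLAG-Lhx1 and at 6.27 and 7.16 CPM in FLAG-Lhx1-mt (log2 fold 0.48, adjusted p = 0.315; 0.947 to 2.05-fold), and the log2 fold was 0.21 without FLAG-Lhx1 replicate 1. The activator E2F genes were not called, with log2 folds of -0.47 for E2f1, 0.06 for E2f2 and 0.07 for E2f3. Neither was Cdc25a (-0.07), for the phosphatase that activates CDK2. Over the class, 2 of 15 genes were called (13.3%, against 6.17% of all tested genes), and the groups did not overlap for 12 (80.0%, against 52.2%). Of these 12, 8 were lower and 4 higher in FLAG-Lhx1, and the median log2 fold was -0.09.

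**Figure D3:**
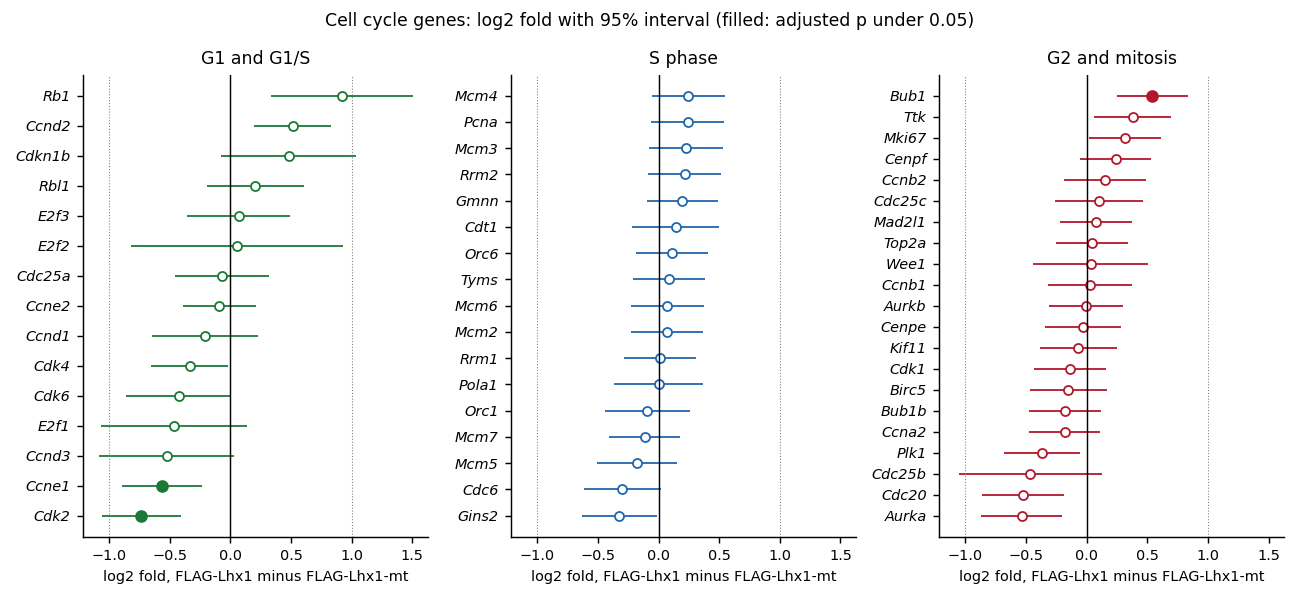
Log2 fold of each gene between the groups (horizontal axis; FLAG-Lhx1 minus FLAG-Lhx1-mt, n = 2 each) with its 95% interval, by class. Filled points have an adjusted p under 0.05 (Cdk2, Ccne1 and Bub1), and dotted lines mark a 2-fold change; all S-phase intervals lie within 0.644 to 1.46-fold.

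None of the 17 replication genes was called by edgeR, where 6.17% of all tested genes were called. In so small a class a count of 0 is near that share. None was called by DESeq2, by limma-voom or in the other alternative fits of all 4 embryos. Gins2 alone had an edgeR unadjusted p under 0.05. Their intervals run from 0.644 to 1.46-fold over the class, so a 2-fold change lies outside the interval of each of the 17. Log2 folds ranged from -0.32 to 0.24 around a median of 0.07. The groups did not overlap for 9 of the 17, near the 52.2% of all tested genes.

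The origin licensing genes were abundant and close between groups. The 6 MCM helicase genes summed to 1716 and 1642 CPM in FLAG-Lhx1 and to 1561 and 1649 CPM in FLAG-Lhx1-mt, with overlap, and their log2 folds ran from -0.18 for Mcm5 to 0.24 for Mcm4. Mcm4 was at 312 and 298 CPM in FLAG-Lhx1 and at 271 and 244 CPM in FLAG-Lhx1-mt (edgeR adjusted p = 0.344; 0.962 to 1.46-fold). Between these ends lay Mcm7 (-0.12), Mcm2 (0.07), Mcm6 (0.07) and Mcm3 (0.23). The helicase holds its 6 subunits in equal parts, while their mRNA levels ran from 25.7 CPM per kilobase for Mcm2 to 94.4 for Mcm3; by the longest transcript in place of all exons they ran from 51.2 to 103, so the width of this range depends on the length used.

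Cdc6, the loader of the helicase, was at 54.0 and 62.2 CPM in FLAG-Lhx1 and at 71.6 and 71.4 CPM in FLAG-Lhx1-mt, lower in both FLAG-Lhx1 embryos but not called (log2 fold -0.30, edgeR adjusted p = 0.265; 0.652 to 1.01-fold). Gmnn, for geminin, was among the most abundant replication genes per kilobase (193 CPM per kilobase). It was at 294 and 309 CPM in FLAG-Lhx1 and at 265 and 261 CPM in FLAG-Lhx1-mt (log2 fold 0.20, adjusted p = 0.448). Cdt1, the target of geminin, had a log2 fold of 0.14, Orc1 of -0.09 and Orc6 of 0.11. Gins2, a subunit of the GINS complex of the moving helicase, was at 107 and 126 CPM in FLAG-Lhx1 and at 149.8 and 141 CPM in FLAG-Lhx1-mt (log2 fold -0.32, adjusted p = 0.213; 0.644 to 0.99-fold). Gse1, on the opposite strand, overlaps 67.3% of the Gins2 exons, so its level is uncertain.

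Pcna, the sliding clamp of the replication fork, was at 506 and 508 CPM in FLAG-Lhx1 and at 443 and 415 CPM in FLAG-Lhx1-mt. Both FLAG-Lhx1 embryos lie above the others, but the log2 fold of 0.24 was not called (SE 0.14, edgeR adjusted p = 0.353; 0.959 to 1.45-fold). The related copy Pcna-ps2 took 36.7% to 43.5% as many counts as Pcna in each embryo and had a log2 fold of 0.36 (adjusted p = 0.145). Reads may have been split between the copies, so the level of Pcna is uncertain. Of the genes that make DNA and its building blocks, Rrm2, for the small subunit of ribonucleotide reductase, had a log2 fold of 0.22, Tyms, for thymidylate synthase, of 0.09, Rrm1 of 0.01 and Pola1, for the catalytic subunit of DNA polymerase alpha, of -0.00.

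**Figure D4:**
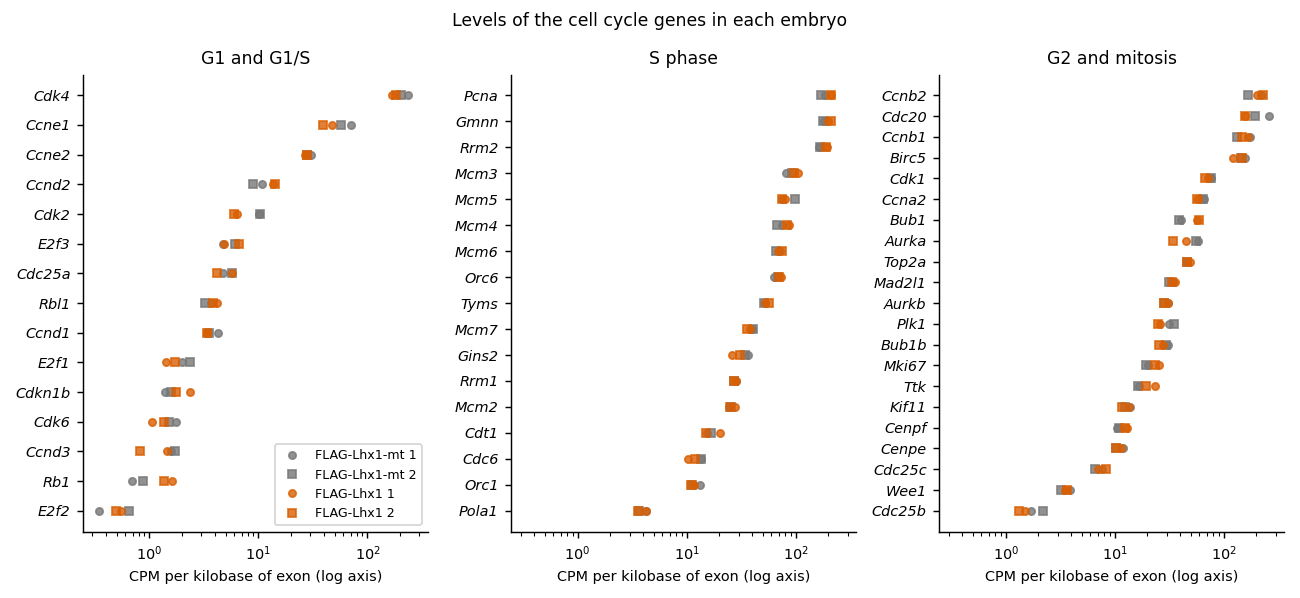
Level of the 53 genes in each embryo as CPM per kilobase of exon (horizontal log axis), by class and ordered by mean level; grey marks are FLAG-Lhx1-mt and orange marks FLAG-Lhx1, with circles for replicate 1 and squares for replicate 2. Cdk4 stands at the top of the G1 class, Pcna and Gmnn at the top of S phase, and Ccnb2 and Cdc20 at the top of mitosis.

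Of the 21 genes of G2 and mitosis, Bub1 alone was called (4.76%, against 6.17% of all tested genes). It encodes a kinase of the spindle checkpoint (ENSMUSG00000027379) and was at 246 and 260.1 CPM in FLAG-Lhx1 and at 178 and 169 CPM in FLAG-Lhx1-mt. The groups are apart by more than the spread within either. The means (± SD, n = 2 each) of 253 ± 10.2 and 174 ± 5.88 CPM differed by 0.54 on the log2 scale (SE 0.14, edgeR adjusted p = 0.0319), or 1.46-fold (1.19 to 1.79). The call was lost without FLAG-Lhx1-mt replicate 2 (0.49), FLAG-Lhx1 replicate 1 (0.55) or FLAG-Lhx1 replicate 2 (0.51), without TMM scaling, and with offsets for length and GC content (0.41).

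Other checkpoint genes did not follow it as a group. Ttk, for the kinase MPS1, was at 116 and 95.8 CPM in FLAG-Lhx1 and at 81.7 and 80.6 CPM in FLAG-Lhx1-mt, higher in both FLAG-Lhx1 embryos but not called (log2 fold 0.38, SE 0.15, edgeR adjusted p = 0.15; 1.05 to 1.62-fold). Its log2 fold was 0.21 without FLAG-Lhx1 replicate 1. Mad2l1 had a log2 fold of 0.08 and Bub1b, for BUBR1, of -0.18. Cdc20, which the checkpoint holds inactive, was at 295 and 295 CPM in FLAG-Lhx1 and at 484 and 365 CPM in FLAG-Lhx1-mt. Its 2 FLAG-Lhx1 values are nearly the same while the FLAG-Lhx1-mt values are spread, and the log2 fold of -0.52 was not called (SE 0.16, adjusted p = 0.0615; 0.551 to 0.877-fold). Cdc20 was called lower by DESeq2, with the replicate block (adjusted p = 0.0318), with library totals alone and with no low-count filter, and in the fit without FLAG-Lhx1-mt replicate 2 (-0.73). Its log2 fold was -0.31 (adjusted p = 0.308) without FLAG-Lhx1-mt replicate 1.

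Aurka, for the Aurora A kinase of the spindle poles, was at 113 and 86.0 CPM in FLAG-Lhx1 and at 148 and 141 CPM in FLAG-Lhx1-mt, lower in both FLAG-Lhx1 embryos. Its log2 fold of -0.54 ± 0.16 just missed the threshold (SE, n = 2 each, edgeR adjusted p = 0.055; 0.548 to 0.869-fold). It was called by DESeq2 and limma-voom, with the replicate block (adjusted p = 0.0281), with library totals alone, with no low-count filter, and without FLAG-Lhx1 replicate 1 (-0.78), FLAG-Lhx1-mt replicate 1 (-0.50) or FLAG-Lhx1-mt replicate 2 (-0.58), while its log2 fold was -0.34 without FLAG-Lhx1 replicate 2. Plk1, for another mitotic kinase, had a log2 fold of -0.37 (adjusted p = 0.161), while Aurkb, for the kinase of the chromosomal passenger complex, stood at -0.00 and its partner Birc5, for survivin, at -0.15.

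The mitotic engine itself was near even. Ccnb2, for cyclin B2, had the highest level per kilobase of the class by all exons (205 CPM per kilobase; by the longest transcript Ccnb1 led, with 265 against 205), at 313 and 349 CPM in FLAG-Lhx1 and 341 and 255 CPM in FLAG-Lhx1-mt, with overlap (log2 fold 0.15, edgeR adjusted p = 0.641; 0.878 to 1.41-fold). Ccnb1 had a log2 fold of 0.03, Cdk1 of -0.14 and Ccna2 of -0.18. Wee1, for the kinase that restrains CDK1, stood at 0.03, and the opposing phosphatase genes at -0.47 for Cdc25b, a low gene at 6.25 CPM with a wide interval, and 0.10 for Cdc25c. Mki67, for the proliferation marker Ki-67, was at 259 and 234 CPM in FLAG-Lhx1 and at 201 and 195 CPM in FLAG-Lhx1-mt, higher in both FLAG-Lhx1 embryos but not called (log2 fold 0.32, adjusted p = 0.205; 1.01 to 1.53-fold). Its log2 fold was 0.04 with offsets for length and GC content. Top2a, for topoisomerase II, stood at 0.05, and the motor and kinetochore genes Kif11, Cenpe and Cenpf at -0.07, -0.03 and 0.24. The groups did not overlap for 11 of the 21 genes, near the 52.2% of all tested genes, and the median of the class was -0.00.

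**Figure D5:**
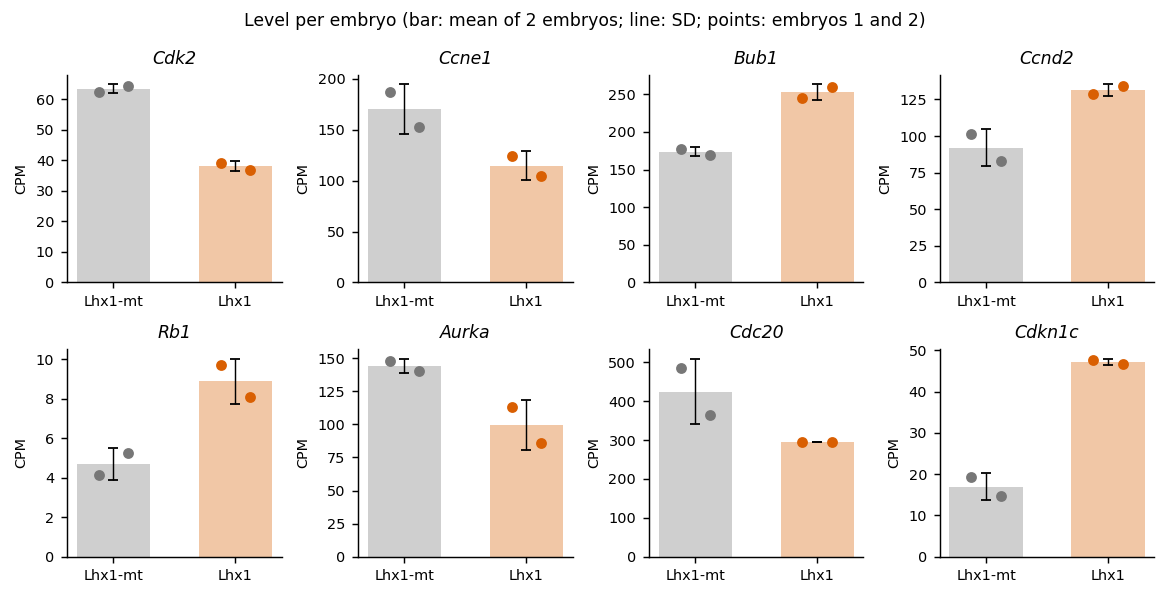
Level of 8 genes in CPM (vertical axis from 0), with bars for the mean of 2 embryos, lines for the SD and points for replicates 1 (left) and 2 (right); grey is FLAG-Lhx1-mt and orange FLAG-Lhx1. Cdk2, Ccne1, Bub1 and Cdkn1c were called; Ccnd2, Rb1, Aurka and Cdc20 have adjusted p-values of 0.0539 to 0.0615.

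Of 127 further cell cycle genes, 126 were tested and 6 were called (4.76%, against 6.17% of all tested genes), 2 higher and 4 lower, where 2.62% and 3.55% of all genes were called. In their G1 part, 3 of 25 were called. Cdkn1c encodes the CDK inhibitor p57, an imprinted gene known for its role in cell cycle exit of differentiating tissue. It was at 47.7 and 46.7 CPM in FLAG-Lhx1 and at 19.4 and 14.6 CPM in FLAG-Lhx1-mt. The groups are far apart (log2 fold 1.48 ± 0.18, SE, n = 2 each, edgeR adjusted p = 0.000289), or 2.78-fold (2.12 to 3.65), and it was called in every alternative fit. E2f5 rose (102 and 84.7 CPM against 60.7 and 64.0 CPM; log2 fold 0.58, adjusted p = 0.0342) and E2f4 fell (18.1 and 18.4 CPM against 26.1 and 32.7 CPM; -0.69, adjusted p = 0.0425); both encode E2F factors that act mainly as repressors. E2f5 lost its call without FLAG-Lhx1 replicate 1 (0.41), and E2f4 without FLAG-Lhx1-mt replicate 2 (-0.53), FLAG-Lhx1 replicate 1 (-0.71) or FLAG-Lhx1 replicate 2 (-0.69).

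The other CDK inhibitor genes were not called: Cdkn1a, for p21, had a log2 fold of -0.51 (adjusted p = 0.28) and Cdkn2d of -0.72 (adjusted p = 0.0793). Cdkn2a was too low to test, at 3 and 2 counts in FLAG-Lhx1 and 0 in either other embryo. In the replication part 2 of 42 fell and none rose. Pold2, for a subunit of DNA polymerase delta, was at 41.9 and 37.8 CPM in FLAG-Lhx1 against 77.7 and 65.6 CPM (log2 fold -0.84 ± 0.16, SE, n = 2 each, edgeR adjusted p = 0.00585), and was called in every alternative fit. Chaf1b, for a subunit of the chromatin assembly factor, was at 58.4 and 55.6 CPM against 97.7 and 75.5 CPM (-0.60, adjusted p = 0.0369). Its call was lost without FLAG-Lhx1-mt replicate 1 (-0.41), FLAG-Lhx1 replicate 1 (-0.67) or FLAG-Lhx1 replicate 2 (-0.55). In the mitotic part 1 of 59 fell and none rose: Ube2s, for the ubiquitin chain-extending enzyme of the anaphase ligase, was at 16.1 and 21.0 CPM against 27.4 and 34.0 CPM (-0.73, adjusted p = 0.0416). That call was lost without FLAG-Lhx1-mt replicate 2 or FLAG-Lhx1 replicate 1 (-0.58 each). Under upper-quartile scaling E2f4, Chaf1b and Ube2s lost their calls, as did E2f4 with the offsets and E2f5 with library totals alone. The medians of these parts were -0.02, 0.03 and -0.00.

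Other measures moved with the groups. The 12 visceral endoderm markers summed to 2212 and 2536 CPM in FLAG-Lhx1 against 5019 and 4112 CPM in FLAG-Lhx1-mt, and 6 of the 12 fell and none rose. Of 8 epiblast and neural plate markers, 4 fell (Pou5f1, Epcam, Nanog and Fgf5) and 1 rose (Sox2). These are called genes, and over all tested genes 3.55% were called lower and 2.62% higher. Markers of trophoblast giant cells, which copy their DNA without dividing, summed to 3.67 to 5.24 CPM per embryo, nearly all from Hand1; maternal decidua markers summed to 7.03 to 8.01 CPM and blood markers to 4.98 to 10.6 CPM. The part of these cell types in the differences of Cdk2, Ccne1, Bub1 and Cdkn1c was not tested. Across the 53 genes, the log2 fold and the GC content of the longest transcript had a Spearman's rho of -0.52 (n = 53 genes of the same 4 libraries, given as a description), against -0.16 over all tested genes and -0.32 over those at or above the level of the lowest of the 53. Of the 3 called genes, Bub1 has 41.0% GC, Cdk2 48.8% and Ccne1 52.7%, beside a median of 47.3% over the 53. Some genes depart from the trend, such as Cdt1 (57.8% GC, log2 fold 0.14) and Ccne2 (36.3% GC, -0.09). With offsets for length and GC content, Cdk2 was the only one of the 53 called (-0.77, edgeR adjusted p = 0.00959), while Ccne1 and Bub1 had adjusted p-values of 0.0921 and 0.0943.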

How the data were processed

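RNA was measured in 4 single embryos with Geo-seq libraries (full-length cDNA, 10 cycles of pre-amplification, no molecular identifiers) read as 100 bp paired ends, per the labels' protocols. The deposited files hold raw counts per Ensembl gene. STAR, featureCounts and Subread with the builds GRCm38 and mm10 were used, per the submitters' processing notes; their versions, the annotation release and the strandedness are not given in the sources at hand. Symbols, lengths, GC content and exon overlaps came from GENCODE vM21 on GRCm38, which matched 37693 of 39179 IDs (96.2%). Exons of other listed genes cover part of 16 of the 53 genes.

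Genes were filtered with filterByExpr (minimum count 10, minimum total 15), scaled by TMM and tested with the quasi-likelihood F test of edgeR 4.0.16 (R 4.3.3) in a model with group only, across all 15822 genes; an adjusted p under 0.05 is called. SEs were taken as |log2 fold| divided by √F, and 95% intervals use 2 residual and 13.4 prior degrees of freedom. A count of 3 equals 0.0959 to 0.153 CPM, counting error only. Alternatives were DESeq2 1.42.0, limma-voom (limma 3.58.1), upper-quartile scaling, library totals alone, no filter, offsets for length and GC content, a replicate block, and each embryo left out. The procedure was tested on simulated data. Labels call the embryos individual. The edgeR p-values rest only on the spread between embryos of the same group, 2 in each. For each gene it is moderated toward the spread over all tested genes (13.4 prior against 2 residual degrees of freedom).

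The members and lists were chosen with earlier results of these data known. Genes given per embryo were those called, the 3 uncalled genes with the smallest p and the 2 with the highest level per kilobase in each class, and Ccnd1, Ccnd2, Ccnd3, Cdkn1b, Pcna and Mki67; of the further lists, up to 4 called genes each. Cdkn1a, Cdkn2a and Cdkn2d were named after their values were seen. The extraembryonic ectoderm list (9 genes) was also measured and summed to 113 and 135 CPM in FLAG-Lhx1 against 226 and 328 CPM in FLAG-Lhx1-mt. Of 8 tested, Eomes (log2 fold -3.12) and Rhox5 (-0.76) were called lower and none higher, against 3.55% and 2.62% of all tested genes. The log2 fold was positive for 4 of the 8 and negative for 4. The low genes Elf5 (1.15), Tfap2c (0.93) and Esrrb (1.95) were higher in both FLAG-Lhx1 embryos but not called.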

Additional observations from a re-analysis of the deposited data

How the results depend on the processing

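The call of 3 cell cycle genes depends on the setting. Genes called higher (1) numbered 2 with upper-quartile normalization, limma-voom or the replicate block, 3 with DESeq2, and 0 with library totals alone or with length and GC offsets; genes called lower (2) numbered 4 with no low-count filter, library totals alone, DESeq2 or the replicate block, and 1 with upper-quartile normalization or the offsets. With 1 embryo left out they ranged from 0 to 2 higher and 0 to 4 lower, and calls over all genes (976) from 521 to 1648. Of the further cell cycle genes, 1 was called higher with library totals alone (2), and 8 and 1 were called lower (4) with no filter and with upper-quartile normalization; with 1 embryo left out, 1 to 6 were called higher and 1 to 9 lower. Upper-quartile normalization also turned the calls over all genes to 54.4% higher, against 42.5%.

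The G1 median was negative in every fit, the S-phase median turned negative with the offsets and without FLAG-Lhx1 replicate 1, and the mitotic median changed sign with the scaling. The median over all tested genes moved as well, so part of these changes is a shift of all genes. It was 0.00889 in the main fit, 0.0617 with upper-quartile normalization and -0.045 with library totals. It was -0.0515 with the offsets, 0.0688 with no filter and -0.0127 without FLAG-Lhx1 replicate 1. With length and GC offsets they were -0.24 for G1, -0.0194 for S phase and -0.21 for mitosis; with no filter, 0.0126 for S phase and -0.0647 for mitosis; for mitosis 0.0482 with upper-quartile normalization and -0.0542 with library totals. With 1 embryo left out they ran from -0.25 to -0.16 for G1, -0.0442 to 0.12 for S phase and -0.15 to 0.0519 for mitosis. Ccnb2 ranged from -0.0559 without FLAG-Lhx1-mt replicate 2 to 0.368 without FLAG-Lhx1-mt replicate 1. The replicate numbers name embryos only: deviations of same-numbered embryos correlated at 0.02, and the replicate block called 1138 genes.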
